A study of Mus musculus with 3 samples.

Results

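Fibronectin, the glycoprotein that cells assemble into fibres of the extracellular matrix, and the integrin subunits that bind it were followed through mouse ear skin. The group is a list of 8 genes out of 31053 in the count matrices: Fn1 for the ligand, the alpha subunit genes Itga4, Itga5, Itga9 and Itgav, and the beta subunit genes Itgb1, Itgb3 and Itgb5. All 8 had UMIs (unique molecular identifiers, 1 per captured transcript) in the data. Single-cell RNA was sequenced from 3 groups of untreated mice: C57BL/6J wild-type mice at 4 weeks (young WT, 5 males and 3 females), C57BL/6J wild-type mice at 8 weeks (adult WT, 6 males and 4 females) and Langerin-DTA mice at 8 weeks (Lang-DTA, 4 males and 6 females). Langerin-DTA mice carry diphtheria toxin A under human Langerin sequence and lack Langerhans cells, the dendritic cells of the epidermis. Per the labels, wild-type mice used with Langerin-DTA mice were littermates from hemizygous transgenic males and WT females. Ears were digested, and lymphatic endothelial, blood endothelial, CD45+ and double-negative (CD45-, CD31-) cells were sorted and mixed in equal parts, so the number of cells in a class is set by the sort. Each group was 1 library of pooled mice, so no test between groups was possible, and every interval below covers counting error only.

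Fibronectin binds integrins as alpha-beta pairs. The alpha5 beta1 receptor, encoded by Itga5 and Itgb1, and the alphav receptors, encoded by Itgav with Itgb3, Itgb5 or Itgb1, read the Arg-Gly-Asp (RGD) motif of fibronectin, while alpha4 and alpha9, each paired with beta1, bind other stretches of the protein and also VCAM-1, tenascin-C and osteopontin. In lymphatic vessels, alpha9 and fibronectin are known for their part in forming the valves, and beta1 integrins for the response of the endothelium to stretch. In epidermis, integrins of the basal layer hold keratinocytes to the basement membrane.

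In GRCm38 the genes lie at 1:71585520-71653200 on the minus strand (Fn1), 2:79255426-79333123 on the plus strand (Itga4), 15:103344286-103366763 on the minus strand (Itga5), 9:118606690-118901003 on the plus strand (Itga9), 2:83724397-83806916 on the plus strand (Itgav), 8:128685654-128733200 on the plus strand (Itgb1), 11:104608000-104670476 on the plus strand (Itgb3) and 16:33829665-33949338 on the plus strand (Itgb5). The stretch of Fn1 that RGD-reading integrins recognise is shown as 33 bases of transcript Fn1-201 from GENCODE M21, with the RGD codons in capitals. The capitals lie at chr1:71606746-71606754, in exon 30 of 46 of this transcript. Of 8 protein-coding Fn1 transcripts that start with ATG and hold whole codons, 7 contain the 9 bases in capitals.
Fn1 RGD codons: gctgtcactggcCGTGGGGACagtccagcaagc
Itga5 and Itgb1 encode the partners of the alpha5 beta1 receptor. Any part of their promoter sequences in the ratios reported below was not tested. Capitals in these sequences mark matches to the GC box GGGCGG on either strand. The 250 bases before the RefSeq start sites of both genes (GRCm38.p6) are given, 5′ to 3′ on the gene's strand. They cover chr15:103366792-103367041 on the minus strand and chr8:128685404-128685653 on the plus strand.
Itga5 promoter: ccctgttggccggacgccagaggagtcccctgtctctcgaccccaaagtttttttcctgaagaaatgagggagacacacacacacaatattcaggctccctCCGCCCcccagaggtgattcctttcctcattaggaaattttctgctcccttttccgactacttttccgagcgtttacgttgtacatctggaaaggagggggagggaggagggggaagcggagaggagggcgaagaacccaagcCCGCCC
Itgb1 promoter: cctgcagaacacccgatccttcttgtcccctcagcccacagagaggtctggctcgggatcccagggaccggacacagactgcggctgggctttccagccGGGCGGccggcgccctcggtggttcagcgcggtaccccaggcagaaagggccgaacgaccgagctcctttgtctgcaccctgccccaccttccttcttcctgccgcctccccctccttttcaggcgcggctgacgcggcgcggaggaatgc
Of the 8 genes, 6 had a RefSeq promoter entry, and Fn1 and Itgb3 did not. The Itga9 entry, chr9:118711442-118711691, lies inside the gene span given above, at another start site. The bases before the start of that span were thus not searched for Itga9. The GC box matched 3 times in Itgb5, 2 times in Itga5 and 1 time each in Itga4 and Itgb1, with no match in Itga9 and Itgav. It was found in 32.7% of all 32851 promoter windows of that length. The AP-1 motif TGANTCA (6.75% of windows) and the E-box CACGTG (6.02%) had no match in any of the 6, on either strand, so no match overlapped one of another motif.

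Cells were gated on raw UMIs. Lymphatic endothelial cells had at least 2 Prox1 UMIs and were divided into a low part (at most 1 UMI of Gdf15 and Gpnmb together) and a high part (at least 4), where Gdf15 encodes a stress-induced cytokine and Gpnmb a lysosome-associated glycoprotein. Blood endothelial cells had at least 3 UMIs of Cdh5 and Ptprb and none of Prox1 or Mmrn1, keratinocytes at least 0.3% of UMIs from Krt5 and Krt14, fibroblasts at least 2 Dpt UMIs and chondrocytes at least 3 Col2a1 UMIs. This gave 3707, 1439 and 2158 lymphatic cells in young WT, adult WT and Lang-DTA, and the high part was 13.1%, 8.27% and 45.6% of them. The libraries held 12864, 13600 and 13540 barcodes with 137441575, 128595813 and 124590777 UMIs, and between 0.63% and 0.75% of the barcodes of each were also present in another library. Langerhans cells with at least 3 Cd207 UMIs numbered 551, 408 and 7. Marker lists that include the genes of the gates were summed, so these sums are partly set by the gates and are no independent check of them. A gate's own list was at 9056 to 17226 counts per 1000000 UMIs (CPM) in low lymphatic cells and 6109 to 6719 in blood endothelial cells. It was at 16669 to 18411 CPM in keratinocytes and 35285 to 51834 in fibroblasts. The chondrocyte gate held cartilage markers at 4178 to 5477 CPM but also fibroblast markers at 12962 to 13843 CPM.

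Fn1 was found in fibroblasts, chondrocytes and both kinds of endothelium, and was close to absent from keratinocytes. In fibroblasts, the main matrix-producing cells of the dermis, its level was 1150 CPM in young WT, 1217 in adult WT and 1337 in Lang-DTA. In chondrocytes it was 810, 668 and 728 CPM, in whole blood endothelium 208, 94.2 and 121 CPM, and in whole lymphatic endothelium 428, 188 and 346 CPM. Keratinocytes had 13.1, 9.67 and 7.80 CPM. The order from fibroblasts to chondrocytes, lymphatic endothelium, blood endothelium and keratinocytes was the same in the 3 libraries, and neighbours in that order had separate counting intervals. A Fn1 UMI was present in 69.5%, 33.6% and 60.1% of lymphatic cells. After each cell was thinned to 2000 UMIs the shares were 39.2%, 19.9% and 31.2%. T cells, which should lack the transcript, had a Fn1 UMI in 1.76%, 0.637% and 1.40% of cells at median depths of 9010, 6973 and 5639 UMIs, beside 7671, 4947 and 9068 in lymphatic cells.

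Among the alpha subunits, Itga9 was highest in low lymphatic cells and nearly absent from keratinocytes. Its level was 366, 319 and 277 CPM in low lymphatic cells, 120, 95.2 and 98.7 CPM in blood endothelium and 0.872, 0.317 and 0.616 CPM in keratinocytes. Fibroblasts had 154, 90.0 and 143 CPM and chondrocytes 172, 65.1 and 120 CPM. Low lymphatic cells led in each library, while fibroblasts and blood endothelium did not differ beyond their intervals in adult WT. Itga5 was present in all the non-epithelial gates, at 88.5, 82.2 and 90.5 CPM in low lymphatic cells, 168, 185 and 164 CPM in blood endothelium, 162, 182 and 213 CPM in fibroblasts and 211, 242 and 173 CPM in chondrocytes, and at 5.90, 5.96 and 5.62 CPM in keratinocytes. T cells had Itga5 at 5.32, 3.45 and 6.15 CPM, a level close to that of keratinocytes. Itgav was carried by every gate, from 30.7, 26.2 and 26.9 CPM in blood endothelium to 308, 200 and 239 CPM in chondrocytes. Low lymphatic cells had Itgav at 174, 169 and 142 CPM, above blood endothelium in each library. Itga4, best known from leukocytes, was at 1.56, 0.465 and 0.670 CPM in low lymphatic cells and 1.18, 1.71 and 1.09 CPM in keratinocytes, the class taken as its background.

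Itgb1, the partner of alpha4, alpha5 and alpha9, was the most evenly spread member, with at least 300 CPM in each of the 6 gates and libraries. It had 620, 513 and 887 CPM in low lymphatic cells, 594, 463 and 601 CPM in blood endothelium, 564, 440 and 491 CPM in fibroblasts, 445, 445 and 458 CPM in chondrocytes and 300, 301 and 310 CPM in keratinocytes. The highest Itgb1 level of any of these gates was in low lymphatic cells of Lang-DTA. Itgb3, the beta subunit of the vitronectin-type receptor, was at 38.6, 45.0 and 38.4 CPM in low lymphatic cells and 24.1, 29.9 and 26.2 CPM in fibroblasts, against 0.359 to 0.507 CPM in keratinocytes. Itgb5 had a different placing, with 133, 138 and 155 CPM in fibroblasts, 143, 87.8 and 94.9 CPM in chondrocytes and 48.3, 31.9 and 30.1 CPM in keratinocytes. Low lymphatic cells had Itgb5 at 2.69, 2.48 and 1.61 CPM. T cells had Itgb5 at 19.9 to 25.2 CPM and do not lack it, so they set no background for it. Within keratinocytes, cells rich in Krt1 and Krt10 (at least 0.5% of UMIs, differentiating cells) had Itgb1 at 162, 125 and 153 CPM and Itgb5 at 105, 79.5 and 68.0 CPM. Cells with under 0.1% had 322, 316 and 327 CPM of Itgb1 and 38.7, 27.2 and 26.1 CPM of Itgb5. Itgb1 was thus higher in the Krt10-poor cells and Itgb5 higher in the Krt10-rich cells of each library.

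**Figure D1:**
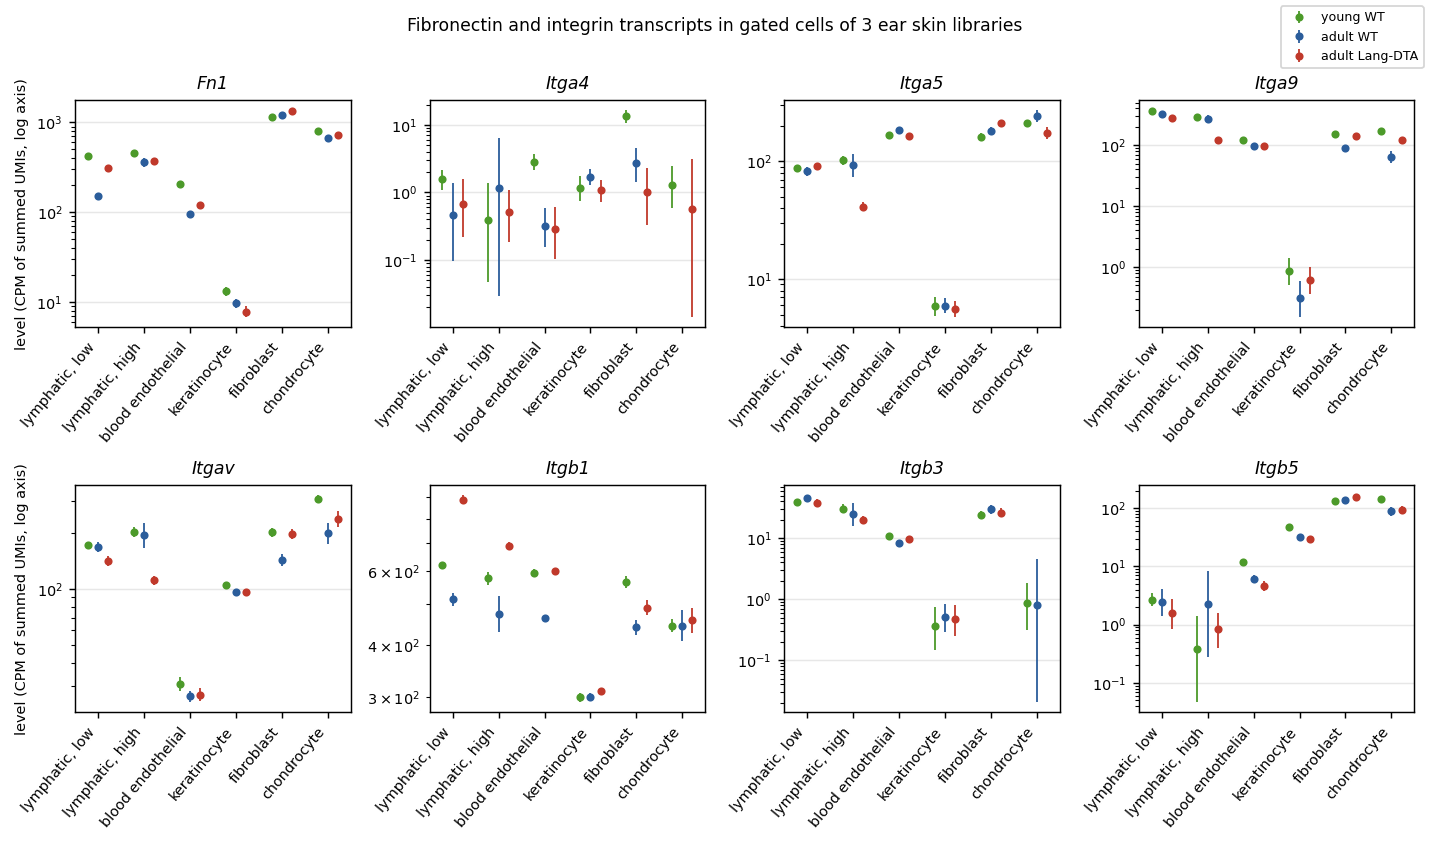
Level of each gene (CPM of summed UMIs, log axis) in 6 gates, with 1 point per library and bars for exact Poisson 95% counting intervals; values of 0 are not drawn. Fn1 in low lymphatic cells sits at 152 CPM in adult WT, below 418 in young WT and 311 in Lang-DTA, and Itgb1 there is highest in Lang-DTA (887 CPM).

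The genes whose levels were most like each member's over the 18 class-by-library sums were found by Pearson's r of log2(CPM + 1) among 8742 genes. These points share libraries and cell classes, so r is a description of placing only. For Fn1 they were Myh10 (a nonmuscle myosin, r = 0.985), Ckb (0.976), Fkbp10 (0.975), Fstl1 (0.971) and Tmem106b (0.967). Itga9 was most like Grk5 (0.990), Plpp1 (0.988) and Rhoj (0.987), and Itgav was like Notch2 (0.973) and Sgcd (0.956). Itga5 was like Snai1 (0.981) and Ccdc88a (0.980). Among the beta subunits, Itgb3 was most like Adam12 (0.970), Adam19 (0.969) and Ntn1 (0.960), and Itgb5 most like Rab34 (0.987), Pja1 (0.981) and Pknox2 (0.980). Itgb1 had looser neighbours, Capns1 (0.922), Nek6 (0.920) and Rras (0.914), and so had Itga4, with Sytl2 (0.826), Notch3 (0.801) and Trpc6 (0.781).

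The first comparison, adult WT over young WT, covers the weeks in which the ear matures. A gene was called where the levels differed at least 1.5-fold, the 95% interval of the ratio left out 1, and there were at least 50 UMIs over both sums and 10 CPM in the higher. A gene under 10 CPM in 1 group was thus tested only through the group where it was high. Fn1 was the only member called in low lymphatic cells, among 6 of 8 that reached the UMI and CPM minimums. It had 418 CPM (409 to 426) in young WT and 152 CPM (143 to 162) in adult WT. The adult level was 2.74-fold lower, a log2 ratio of -1.46 (-1.55 to -1.36). Of all 9143 genes tested there, 6.86% were called lower, 4.94% higher and 11.8% in either direction. The other ratios stayed small: -0.11 (-0.25 to 0.03) for Itga5, -0.20 (-0.27 to -0.13) for Itga9, -0.04 (-0.14 to 0.05) for Itgav, -0.27 (-0.33 to -0.22) for Itgb1 and 0.22 (0.02 to 0.41) for Itgb3. The ligand was thus lower in the adult library, and the 5 receptor subunits tested were within 1.5-fold. Itga4 and Itgb5 were not tested. Itga4 had 36 and 3 UMIs (1.56 and 0.465 CPM, -1.75, -4.09 to -0.09). Itgb5 had 62 and 16 UMIs but stayed below 10 CPM (2.69 and 2.48). Over all lymphatic cells Fn1 was again the only member called (188 against 428 CPM, -1.18), where 5.92% of genes were called lower and 5.23% higher. In the high cells no member was called, with Fn1 at 361 against 459 CPM (-0.34), where 9.64% of genes were called lower and 5.91% higher.

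The Fn1 ratio had the same direction in cells called female from Xist UMIs (-1.47) and in cells called male from Y-linked UMIs (-1.55). Other features of the low lymphatic cells also differed between these libraries: median depth was 7198 and 4752 UMIs, cells with a UMI of the cycling genes Mki67 or Top2a made up 6.56% and 1.78%, and summed immediate early genes, which respond to cell isolation, were at 13783 and 19576 CPM. Summed chondrocyte markers were at 74.0 and 6.20 CPM, mural markers at 42.2 and 8.68 CPM and fibroblast markers at 336 and 394 CPM, with all genes of the 3 lists detected. In cells with at most 0.03% of UMIs from these lists the Fn1 ratio was -1.55. With cells thinned to 2000 UMIs the Fn1 ratio was -1.36, and without Mki67 or Top2a cells it was -1.47. The part of the immediate early genes was not tested.

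Subsets of the low lymphatic cells, formed after results of these data were known, placed the Fn1 transcript. Low cells that met no subset rule were left out. Cells with at least 3 UMIs of Lyve1, a marker of lymphatic capillaries, and none of Foxp2 or Cldn11 had Fn1 at 251 CPM in young WT, 66.2 in adult WT and 290 in Lang-DTA. Cells with at least 2 UMIs of Foxp2, a transcription factor of collecting vessels, at most 2 of Lyve1 and none of Cldn11 had 380, 208 and 327 CPM. Cells with at least 2 UMIs of Cldn11, a claudin of valves, had 1733 CPM in 193 cells of young WT and 623 CPM in 56 cells of adult WT, and Lang-DTA held only 18 such cells and gets no value. Fn1 was highest in the Cldn11 cells and lowest in the Lyve1 cells of each wild-type library, and adult WT was the lowest library in each subset that has a value. The same Cldn11 cells had the highest Itga9, at 707 and 485 CPM, against 423 and 337 CPM in Lyve1 cells and 317 and 291 CPM in Foxp2 cells. Adult over young, the Fn1 log2 ratio was -1.92 (-2.22 to -1.63) in Lyve1 cells and -0.87 (-1.08 to -0.67) in Foxp2 cells, where 14.3% and 12.7% of all genes tested were called in either direction. No other member was called in these subsets.

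**Figure D2:**
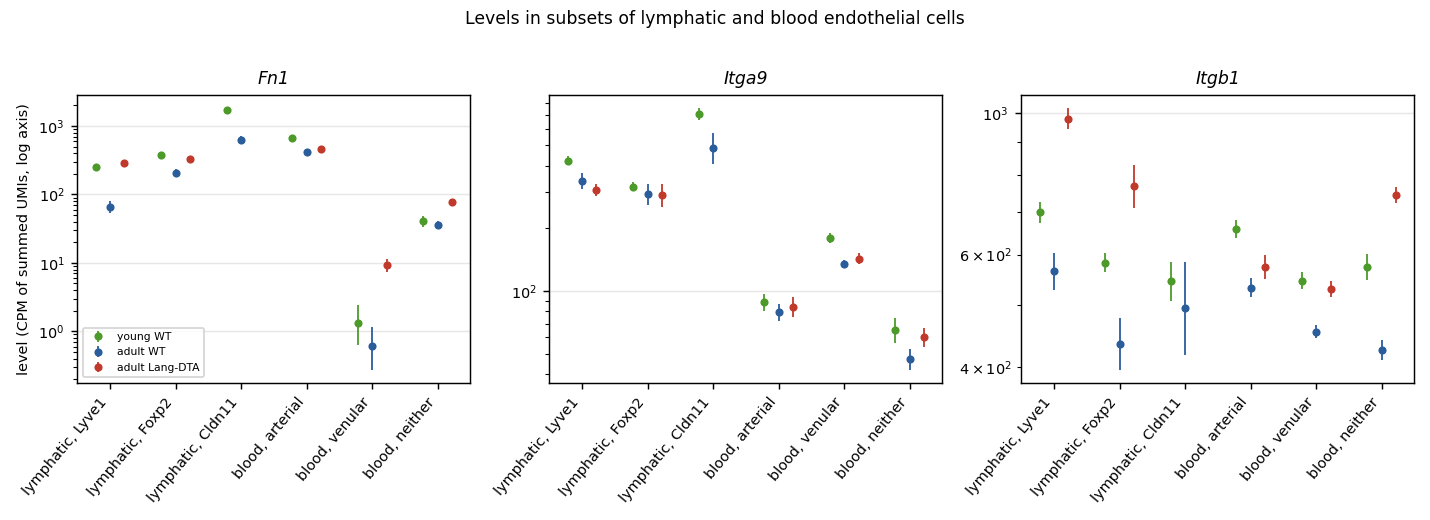
Level (CPM of summed UMIs, log axis) of Fn1, Itga9 and Itgb1 in subsets of low lymphatic and of blood endothelial cells, 1 point per library with exact Poisson 95% counting intervals; subsets with under 50 cells are left out. Fn1 is highest in Cldn11 lymphatic cells (1733 and 623 CPM) and near 1 CPM in venular cells of the wild-type libraries.

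In lists of related genes, other ligands of these integrins also differed with age in low lymphatic cells. Of 18 ligands tested, 3 were called higher and 6 lower, beside 4.94% and 6.86% of all genes tested, with a median log2 ratio of -0.39 against -0.11 over all genes. Postn, encoding periostin, was at 18.8 CPM in young and 84.2 in adult WT (log2 ratio 2.16), Vcam1, an alpha4 and alpha9 ligand, at 20.4 and 77.8 CPM (1.93), and Vwf, encoding von Willebrand factor, at 41.7 and 64.8 CPM (0.64). The largest lower ratios were for Tnc, encoding tenascin-C (25.1 and 6.51 CPM, -1.94), Ctgf (101 and 43.4 CPM, -1.22), Thbs1 (82.3 and 39.7 CPM, -1.05) and Ltbp1 (87.6 and 49.0 CPM, -0.84). None of 17 adhesion adaptors tested was called. Of 8 genes tested in a list of co-receptors, crosslinkers and associated genes, Cd44 (58.7 and 13.3 CPM, -2.14) and Fstl1 (613 and 265 CPM, -1.21) were lower. Of 5 other integrins tested, Itgb8 was lower (22.6 and 6.51 CPM, -1.80).

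The second comparison, Lang-DTA over adult WT, sets ears without Langerhans cells against wild-type ears of the same age. It shares the adult WT library with the first, so a high or low value in that library moves both. In low lymphatic cells Fn1 and Itgb1 were higher without Langerhans cells and no member was called lower. Fn1 was at 152 CPM (143 to 162) in adult WT and 311 CPM (299 to 324) in Lang-DTA, a 2.04-fold difference with a log2 ratio of 1.03 (0.92 to 1.14). Itgb1 was at 513 CPM (496 to 531) and 887 CPM (866 to 909), a 1.73-fold difference with a log2 ratio of 0.79 (0.73 to 0.85). The Fn1 level of Lang-DTA lay between the wild-type libraries, while that of Itgb1 lay above both, with young WT at 620 CPM. The background was wide in this comparison: 16.4% of 9224 genes were called higher, 10.0% lower and 26.5% in either direction. Itga5 (0.14, -0.03 to 0.31), Itga9 (-0.20, -0.29 to -0.12), Itgav (-0.25, -0.37 to -0.13) and Itgb3 (-0.23, -0.47 to 0.01) were not called. Itgb1 and its alpha5 partner Itga5 thus had different ratios in these cells.

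Both sexes gave these directions, with Fn1 ratios of 1.02 in female-called and 1.09 in male-called cells and Itgb1 ratios of 0.76 and 0.83. The median depth of low lymphatic cells was 4752 and 6770 UMIs, cells with Mki67 or Top2a UMIs made up 1.78% and 16.4%, summed immediate early genes were at 19576 and 9614 CPM, and summed mural markers at 8.68 and 152 CPM. The Fn1 and Itgb1 ratios were 0.97 and 0.77 in thinned cells, 1.06 and 0.78 without Mki67 or Top2a cells, and 1.14 and 0.79 in cells with at most 0.03% of UMIs from fibroblast, mural and chondrocyte markers. The part of the immediate early genes was not tested. In the Lyve1 subset Fn1 was 4.37-fold higher in Lang-DTA than in adult WT (log2 ratio 2.13, 1.84 to 2.43) and Itgb1 1.74-fold higher (980 against 564 CPM), where 28.7% of all genes tested were called in either direction. In the Foxp2 subset the fold was 1.57 for Fn1 and 1.77 for Itgb1 (768 against 435 CPM), with 24.8% of all genes called.

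The related genes called in low lymphatic cells are read against a background of 16.4% higher and 10.0% lower. Of 18 other ligands tested, 7 were higher and 2 lower, with a median log2 ratio of 0.41 against 0.09 over all genes tested. Tnc was at 6.51 CPM in adult WT and 92.3 in Lang-DTA (log2 ratio 3.83), Thbs1 at 39.7 and 216 CPM (2.44), Ctgf at 43.4 and 162 CPM (1.90) and Tgfb2 at 134 and 281 CPM (1.07). Vcam1 was lower, at 77.8 and 20.8 CPM (-1.91), as was Tgfb3, at 58.6 and 32.9 CPM (-0.83). Tenascin-C and VCAM-1, both ligands of alpha9 beta1, thus had ratios of opposite sign. Of 18 adhesion adaptors, which link integrin tails to actin, 6 were higher and 2 lower. The largest were Tns3 (2.64 and 10.0 CPM, 1.93), Flna, encoding filamin A (61.9 and 114 CPM, 0.89), Bcar1 (35.5 and 57.6 CPM, 0.70) and Actn4 (262 and 404 CPM, 0.62), and the lower ones were Tln2 (107 and 65.0 CPM, -0.72) and Tns1 (414 and 271 CPM, -0.61). Of 8 genes tested in the list of co-receptors, crosslinkers and associated genes, Anxa2 (577 and 1271 CPM, 1.14), Cd44 (13.3 and 22.8 CPM, 0.77) and Fstl1 (265 and 450 CPM, 0.77) were higher. The syndecan gene Sdc4 was lower (55.0 and 34.8 CPM, -0.66). Itga1, a collagen receptor subunit, was the only one of 4 other integrins tested that was called, at 69.6 and 118 CPM (0.76).

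In all lymphatic cells as 1 class, 2 further members were called lower in Lang-DTA. Itga9 was at 313 CPM (301 to 325) in adult WT and 186 CPM (180 to 192) in Lang-DTA (log2 ratio -0.75, -0.83 to -0.68), and Itgb3 at 43.9 and 27.3 CPM (-0.69, -0.88 to -0.49). Fn1 (188 and 346 CPM, 0.88) and Itgb1 (505 and 774 CPM, 0.62) were again higher. Of all genes tested, 41.7% were called in either direction, 24.6% higher and 17.1% lower. The share of high cells, 8.27% against 45.6%, differed between these libraries. For Itga9 the ratio was -0.20 in low cells and -1.14 (-1.34 to -0.93) in high cells. With doublet calls kept, the Itga9 ratio in all lymphatic cells was -0.65.

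The third comparison takes the high part over the low part of the lymphatic cells of Lang-DTA, where 984 and 965 cells gave well-filled sums. Gdf15 and Gpnmb formed these parts and are no result. Itga5, Itga9 and Itgb3 were lower in the high cells and no member was called higher. Itga5 was at 90.5 CPM (83.8 to 97.6) in low and 41.1 CPM (37.6 to 45.0) in high cells, a log2 ratio of -1.14 (-1.31 to -0.97). Itga9 was at 277 CPM (265 to 289) and 123 CPM (116 to 129), a ratio of -1.18 (-1.27 to -1.08), and Itgb3 at 38.4 and 20.1 CPM, a ratio of -0.94 (-1.19 to -0.69). Of all 9329 genes tested, 22.7% were called lower, 17.3% higher and 40.0% in either direction. Itgav (142 and 111 CPM, -0.35), Itgb1 (887 and 690 CPM, -0.36) and Fn1 (311 and 370 CPM, 0.25) were within 1.5-fold. The 209 cells with 2 or 3 UMIs of Gdf15 and Gpnmb lay between the parts for Itga9 (220 CPM) and Itga5 (76.5 CPM). Cells of both sexes gave these directions for the 3 lower genes, at -1.14 and -1.28 for Itga5, -1.07 and -1.49 for Itga9 and -0.84 and -0.97 for Itgb3 in female-called and male-called cells. For Fn1 they did not, with 0.50 in female-called and -0.20 in male-called cells. Median depth was 6770 UMIs in low and 11379 in high cells, and the ratios after thinning were -0.98 for Itga5, -1.39 for Itga9 and -1.06 for Itgb3.

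The wild-type libraries also held high cells, 485 in young and 119 in adult WT. In young WT no member was called between high and low cells (8.67% of all genes tested were called lower and 1.8% higher), with Itga5 at 102 and 88.5 CPM and Itga9 at 284 and 366 CPM. In adult WT Fn1 was higher in high cells (361 and 152 CPM, log2 ratio 1.25, 1.06 to 1.43) and Itgb3 lower (25.4 and 45.0 CPM, -0.82), with 3.77% of all genes called higher and 11.2% lower. The adult WT high cells also carried fibroblast markers at 1059 CPM in sum (6 of 7 markers, Dpt at 0) and melanocyte markers at 98.2 CPM, whose part in the Fn1 value was not tested. Between high cells of the adult libraries, Itga5 (92.4 CPM in adult WT and 41.1 in Lang-DTA, -1.17), Itga9 (270 and 123 CPM, -1.14) and Itgav (195 and 111 CPM, -0.81) were lower in Lang-DTA, where 18.2% of all genes tested were called lower and 28.2% higher. No member was called higher there, unlike in low cells, with Fn1 at 361 and 370 CPM and Itgb1 at 475 and 690 CPM. The composition of the sum differed too, since Gpnmb in high cells was at 43.9 CPM in adult WT and 805 CPM in Lang-DTA.

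The related genes called in the high cells of Lang-DTA are read against 17.3% higher and 22.7% lower over all genes. Of 19 other ligands tested, 2 were higher and 10 lower (median log2 ratio -0.65 against -0.08 over all genes), led by Vwf (43.4 CPM in low and 2.71 in high cells, -4.00), Postn (71.7 and 12.2 CPM, -2.56), Adam15 (30.0 and 8.55 CPM, -1.81) and Emilin1, an alpha9 ligand of lymphatic vessels (36.4 and 10.8 CPM, -1.75). Madcam1 (0.536 and 15.6 CPM, 4.86, 3.48 to 6.75) and Vcam1 (20.8 and 31.3 CPM, 0.59) were the 2 higher ones. Of 18 adaptors, Tns3 was higher (10.0 and 20.9 CPM, 1.06) and 5 were lower, led by Tln2 (65.0 and 17.9 CPM, -1.86), Flna (114 and 53.9 CPM, -1.09), Ptk2, encoding focal adhesion kinase (207 and 115 CPM, -0.84), and Lims1 (636 and 411 CPM, -0.63). In the list of co-receptors, crosslinkers and associated genes, only the urokinase receptor gene Plaur was higher (160 and 286 CPM, 0.84), with 4 of 8 lower. The laminin receptor genes Itgb4 (88.5 and 32.2 CPM, -1.46) and Itga6 (197 and 100 CPM, -0.98) were lower among 4 other integrins tested. Other markers also differed between low and high cells of this library. Summed mural markers were at 152 and 11.9 CPM and blood endothelial markers at 2157 and 1533 CPM, among them Flt1 at 145 and 5.25 CPM, with all genes of both lists detected. Summed lymphatic markers were at 9056 and 5182 CPM, and the median mitochondrial share was 1.76% and 0.593%. In cells poor in stromal markers the ratios were -1.14 for Itga5, -1.20 for Itga9 and -0.91 for Itgb3, and the part of the other markers in these values was not tested.

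**Figure D3:**
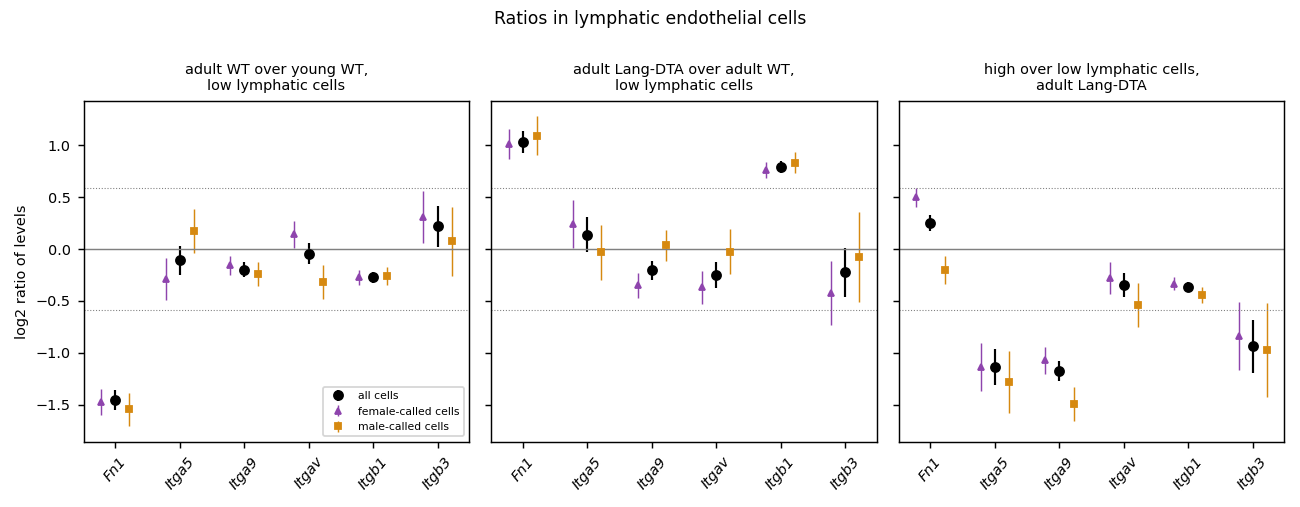
Log2 ratios of the 6 members that reached the UMI and CPM minimums in lymphatic cells for 3 comparisons, with exact conditional 95% counting intervals; black circles are all cells, purple triangles female-called and orange squares male-called cells, and dotted lines mark 1.5-fold. Fn1 is at -1.46 for age and 1.03 for genotype, and Itga5, Itga9 and Itgb3 lie below the lower dotted line in the high cells of Lang-DTA.

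Blood endothelial cells carried Fn1 unevenly. Arterial cells, gated by at least 3 UMIs of Sema3g, Gja5 and Gja4 without Selp or Ackr1, had Fn1 at 670, 413 and 465 CPM in young WT, adult WT and Lang-DTA. Venular cells, with at least 3 UMIs of Selp and Ackr1 and no arterial UMI, had 1.32, 0.606 and 9.24 CPM, and cells with neither had 40.2, 35.8 and 76.5 CPM. Fn1 was thus highest in arterial cells in each library. In the venular cells of Lang-DTA it came from 0.740% of cells, the same share as in adult WT (0.741%). Itga9 had the reverse placing, at 180, 135 and 143 CPM in venular and 88.6, 79.1 and 84.1 CPM in arterial cells. Itgb3 was higher in arterial cells (19.9, 17.9 and 14.3 CPM) than in venular cells (8.17, 7.47 and 10.6 CPM), while Itga5 was somewhat higher in venular cells (192, 207 and 206 CPM against 141, 161 and 149 CPM).

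With age, Fn1 and Itgb5 were lower in blood endothelium and the other 5 members tested were not called. Fn1 was at 208 CPM (201 to 215) in young and 94.2 CPM (90.8 to 97.7) in adult WT, a log2 ratio of -1.14 (-1.21 to -1.07), and Itgb5 at 11.9 and 6.11 CPM, a ratio of -0.96 (-1.25 to -0.67). Here and in the arterial subset below, Itgb5 reached the 10 CPM minimum through young WT alone. Of all genes tested, 4.81% were called lower, 3.65% higher and 8.46% in either direction. Summed mural markers in this gate were at 688 CPM in young and 188 in adult WT, and fibroblast markers at 357 and 146 CPM, with all genes of both lists detected. In cells with at most 0.03% of UMIs from fibroblast, mural and chondrocyte markers the Fn1 ratio was -1.27 and the Itgb5 ratio -0.19. In the arterial subset Fn1 was 1.62-fold lower in adult WT (-0.70, -0.77 to -0.62) and Itgb5 was at 12.2 and 4.73 CPM (-1.37, -2.08 to -0.70), where 11.1% of all genes tested were called. In the cells with neither arterial nor venular UMIs Fn1 was at 40.2 and 35.8 CPM (-0.17, -0.49 to 0.16) and was not called. Arterial cells, which had the highest Fn1, were 469 of 1644 cells in young and 572 of 3231 in adult WT. These Fn1 ratios of the arterial and the neither subset were smaller than that of the whole gate. In venular cells, 599 in young and 1214 in adult WT, Fn1 was below the 10 CPM minimum. The part of the subset shares in the whole-gate ratio was not tested.

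By genotype, no member was called in blood endothelium as a whole (2.11% of all genes tested were called higher, 0.617% lower and 2.73% in either direction), with Fn1 at 0.36 (0.29 to 0.44) and Itgb1 at 0.38 (0.34 to 0.41) on the log2 scale. In the cells with neither arterial nor venular UMIs, Fn1 (35.8 and 76.5 CPM, 1.09, 0.87 to 1.32) and Itgb1 (425 and 744 CPM, 0.81, 0.74 to 0.88) were called higher in Lang-DTA, with 14.1% of all genes called. In arterial cells the ratios were 0.17 for Fn1 and 0.11 for Itgb1, and in venular cells 0.22 for Itgb1. The neither subset of Lang-DTA also had Gdf15 at 464 CPM against 5.08 in adult WT, Gpnmb at 72.5 against 1.05 CPM and summed lymphatic markers at 80.1 against 31.5 CPM, with Prox1 and Mmrn1 at 0 by the gate. The part of these cells in the ratio was not tested.

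In fibroblasts, chondrocytes and keratinocytes Fn1 was not called in any comparison where it reached the minimums, while Itga9 was called for age and for genotype in the stroma. For Fn1 in keratinocytes this depended on the processing. Without Mki67 or Top2a cells its age ratio was -0.70 (-0.97 to -0.43). With doublet calls kept it was at 13.8 CPM in adult WT and 30.8 CPM in Lang-DTA keratinocytes. The Fn1 genotype ratio in fibroblasts was 0.14, with -0.21 in female-called and 0.60 in male-called cells. In fibroblasts Itga9 had 154 CPM (145 to 164), 90.0 CPM (81.7 to 98.8) and 143 CPM (132 to 154) in young WT, adult WT and Lang-DTA. Adult WT was the low library, with a log2 ratio of -0.77 (-0.94 to -0.61) for age and 0.67 (0.49 to 0.84) for genotype. Of all genes tested in fibroblasts, 12.0% were called lower and 6.1% higher for age (18.1% in all), and 5.8% higher and 2.96% lower for genotype (8.76% in all). The genotype ratio was 1.14 in female-called and 0.14 in male-called fibroblasts, and summed chondrocyte markers in the gate, also lowest in adult WT, were at 1016, 391 and 836 CPM. With cells of more than 1 gate left out the ratios were -0.75 and 0.63. Chondrocytes showed the same order for Itga9, at 172 CPM (163 to 182), 65.1 (51.6 to 81.0) and 120 (105 to 138), with ratios of -1.41 (-1.75 to -1.08) and 0.89 (0.51 to 1.28), where 9.12% of all genes were called lower and 6.96% higher for age, and 2.72% higher and 3.19% lower for genotype. The adult WT value rests on 101 chondrocytes.

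Other members called in stroma and epidermis were lower in adult than in young WT. Itga4 in fibroblasts was at 13.4 CPM in young and 2.69 in adult WT (-2.31, -3.28 to -1.46), beside 1.0 CPM in Lang-DTA. It reached the 10 CPM minimum through young WT alone. Summed mural markers in the fibroblast gate were at 2350, 601 and 387 CPM and macrophage markers at 101, 4.77 and 3.00 CPM, in the same order, and their part in the Itga4 value was not tested. In chondrocytes Itgav (308 and 200 CPM, -0.62) and Itgb5 (143 and 87.8 CPM, -0.70) were lower, though thinned cells gave 0.02 (-0.67 to 0.65) for Itgb5. In keratinocytes Itgb5 was at 48.3 CPM in young and 31.9 in adult WT (-0.60, -0.73 to -0.47), where 2.94% of all genes tested were called lower, 4.09% higher and 7.03% in either direction. This ratio is near the 1.5-fold limit and was -0.50 under median-of-ratios scaling. Between Lang-DTA and adult WT keratinocytes no member was called among the 3 tested, Itgav (0.01), Itgb1 (0.04) and Itgb5 (-0.09), and of all genes 0.139% were called higher, 0.277% lower and 0.416% in either direction.

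**Figure D4:**
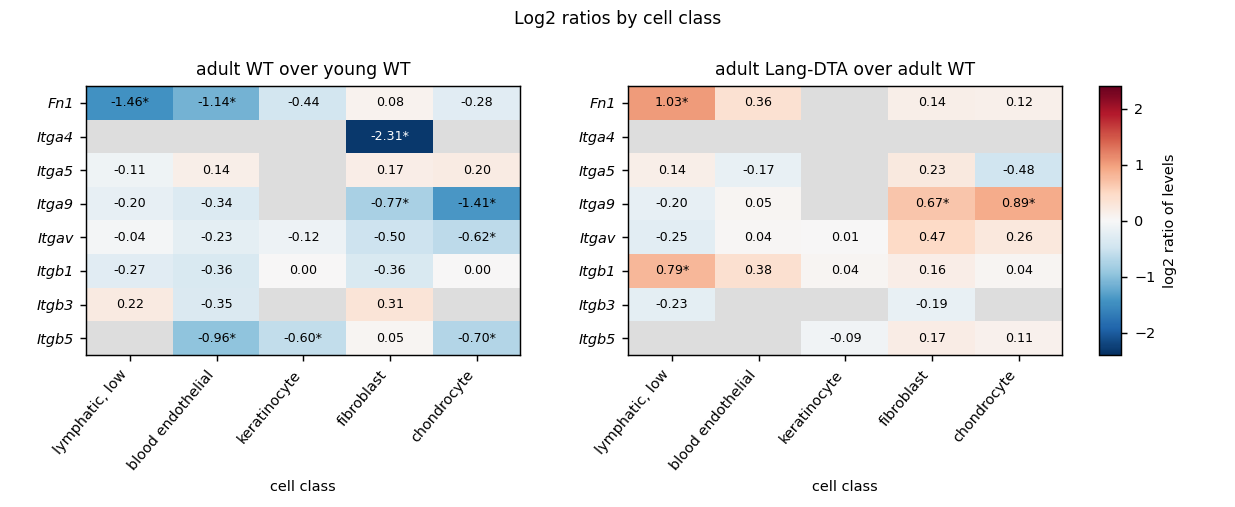
Log2 ratios of the 8 genes (vertical axis) in 5 cell classes (horizontal axis) for adult WT over young WT and for Lang-DTA over adult WT; colour gives the ratio, a star marks a called gene and grey cells did not reach the UMI and CPM minimums. Fn1 is starred for age in low lymphatic (-1.46) and blood endothelial cells (-1.14), and Itga9 in fibroblasts and chondrocytes is below 0 for age and above 0 for genotype.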

How the data were processed

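Deposited were counts of UMIs per gene and barcode for 3 libraries (10x Genomics 3′ v4), made by the authors with Cell Ranger 8.01 on GRCm38 per the submitters' processing notes (8.0.1 per the file headers), with no normalization. How intronic reads were treated and which gene annotation was used is not given in the sources used here. Genes were matched to GENCODE M21 by ID (31011 of 31053). Of 40004 barcodes, 37961 passed minimums of 500 genes and 1000 UMIs and a mitochondrial maximum of 10%. Doublets called by simulation (2 per cell, 2000 variable genes, 30 components, 50 neighbours, 0.4% per 1000 barcodes; 2026 calls) were left out, leaving 11761, 11934 and 12240 cells with median depths over all barcodes of 9568, 7966 and 8189 UMIs. A cell could meet more than 1 gate. UMIs were summed per gate and library and given per 1000000 (CPM). Levels have exact Poisson, shares exact Clopper-Pearson and ratios exact conditional 95% intervals, which cover counting error only. The ratio step was tested on simulated data. A class with under 50 cells in a library got no value. Nothing tells separate mice apart in a pool. The members, gates, lists and subsets were chosen with earlier results of these data known. Named were all members, the called list genes with the largest change (at most 4 per list and direction), and the genes most alike to each member (at least 30 CPM in the highest sum). Some genes that this rule names are not reported here. An imiquimod condition named in the protocol was not analysed here. Alternatives were other filters, gates, scalings, depth, sex and fold. Tools were scikit-learn 1.9.0, scipy 1.17.1, numpy 2.4.6, matplotlib 3.10.9 and pandas 2.3.3 under Python 3.11.15.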

Additional observations from a re-analysis of the deposited data

Results flagged for a closer look

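Itga9 had ratios of opposite sign between Lang-DTA and adult WT in different cell classes. In fibroblasts the log2 ratio was 0.665 (90.0 to 143 CPM), in chondrocytes 0.888 (65.1 to 120 CPM) and in all lymphatic cells -0.752 (313 to 186 CPM). With 1 library per group the difference between the classes was not tested. In low lymphatic cells alone the ratio was -0.20, and in male-called fibroblasts 0.14.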

How the results depend on the processing

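No paired analysis was possible because each group is 1 library, and for the same reason no replicate could be left out. Over 13 comparisons, 128 of 148 counts of called members stayed within 1.5 times under the alternatives, and 20 did not. With a fold of 2 the count of called members was 0 for genotype in all lymphatic cells, fibroblasts and chondrocytes and for age in keratinocytes, and 1 for genotype in low lymphatic cells and for age in blood endothelium, fibroblasts and chondrocytes. For age in blood endothelium it was 1 when each cell had equal weight, when doublet calls were kept and in cells poor in stromal markers. For age in keratinocytes it was 0 with cells weighted equally, with median-of-ratios scaling and in male-called cells, and 2 without Mki67 or Top2a cells. Thinning gave 1 for genotype in blood endothelium and for age in fibroblasts. For genotype it was 1 in keratinocytes with doublet calls kept, 0 in fibroblasts with cells weighted equally and 3 in chondrocytes with stricter gates. Apart from the changes that follow from the higher fold itself, the cause was not tested.

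Of 790 member ratios recomputed, 624 lay inside the counting interval of the reported value and 165 outside it. The 1 counted as reversed was Itgb5 for age in chondrocytes, a called member (0.017 in thinned cells). Ratios of members that were not called also changed sign in some settings. For Fn1 in high over low cells of Lang-DTA, the ratio was 0.25 in all cells and -0.20 in male-called cells. The Fn1 ratio in low lymphatic cells ran from -1.60 to -1.30 for age and from 0.92 to 1.14 for genotype. With doublet calls kept, 77 of 168 levels and 35 of 168 shares lay outside their intervals, and thinning moved 162 of 168 shares. With at least 200 UMIs and no CPM minimum, the 12 list counts of low lymphatic cells (age, genotype) and of high over low cells, higher and lower calls added, stayed within 1.5 times, but ligands called higher in the high cells went from 2 to 1. Median-of-ratios scaling subtracted a log2 value of -0.107 to 0.066 from the ratios of a comparison. The settings on stromal markers and on Mki67 or Top2a were chosen after seeing the data. Male-called chondrocytes were too few for a value.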

Other observations

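Immune cells of the same libraries placed the members that endothelium lacked. Itga4 was at 200, 174 and 212 CPM in macrophages (at least 5 C1q UMIs) of young WT, adult WT and Lang-DTA, at 70.7 and 63.8 CPM in Langerhans cells of young and adult WT, and at 20.5, 13.4 and 33.1 CPM in T cells (at least 3 Cd3 UMIs). Between the adult libraries the Itga4 ratio in T cells was 1.31 (1.02 to 1.59) on the log2 scale, where 2.47% of all genes tested were called. Itgav, whose product pairs with beta8 among others, was at 510, 434 and 390 CPM in T cells. Langerhans cells had Fn1 at 1.54 and 6.40 CPM, while macrophages had 529, 382 and 410 CPM from only 24.1%, 28.1% and 25.8% of cells. Itga9 in macrophages was again lowest in adult WT, at 79.4, 39.2 and 102 CPM, and the adult WT value rests on 64 cells and 25 UMIs.

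The 5% of cells with most Fn1 UMIs held 39.7%, 53.6% and 35.9% of them in low lymphatic cells and 56.6%, 71.1% and 70.7% in blood endothelium. For Itga9 in low lymphatic cells the same share was 22.7%, 23.4% and 23.5%. The median depth of the low lymphatic cells was 7198, 4752 and 6770 UMIs, and these shares were not thinned.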
